A study of Mus musculus with 56 samples.

Results

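Open chromatin was examined on protein-coding sequence away from promoters, in mouse granulocyte-monocyte progenitor (GMP) clones with and without Tet2. The regions were the autosomal peaks whose centre lay in a coding exon (CDS) of a protein-coding gene and over 2 kb from every transcription start site (TSS) of the basic GENCODE annotation. The rule found 10984 such peaks of 292001 autosomal peaks (3.76%) and of 297361 peaks in all, and no measured value entered it. They are called coding-exon peaks here. They lay in 6499 genes, of which 4017 held 1 peak, and 48 of them lay where 2 or more genes overlap. With the comprehensive GENCODE annotation 7575 peaks met the rule.

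The cells were bone marrow progenitors immortalised with Hoxb8 joined to the estrogen receptor (Hoxb8-ER), which holds GMPs undifferentiated while estradiol is present, and all groups carried it and grew in 0.5 µM estradiol. Each clone was grown from 1 sorted cell of a mouse with floxed Tet2 alleles and was then divided. A non-integrating lentivirus, at a multiplicity of infection of 200, brought Cre to the Tet2 KO line and GFP to the control line. There were 24 clone pairs kept in stem cell factor (SCF, 100 ng/ml, a neutrophil-biased culture) and 4 kept in GM-CSF (10 ng/ml, macrophage progenitors), giving 24 SCF control, 24 SCF Tet2 KO, 4 GM-CSF control and 4 GM-CSF Tet2 KO libraries. Bulk ATAC-seq, in which a transposase inserts adapters into accessible DNA, was run on 1000 cells per library. No clone was grown in both cytokines, so a clone and its cytokine cannot be told apart within GM-CSF, and each line stands for 1 clone. Clones 20, 21 and 22 carry SCF in their titles but GM-CSF as their treatment, and were placed by the latter.

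Coding exons are read by the ribosome as protein, and most accessible elements lie outside them, at promoters, in introns and between genes. Some exons also hold binding sites for transcription factors and can act as enhancers of their own or a neighbouring gene. Coding sequence keeps more CpG dinucleotides than the surrounding introns, and CpG is the site of the DNA methylation that Tet2 oxidises as a step towards its removal. SCF signals through Kit in early progenitors, and GM-CSF drives monocyte and macrophage growth.

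The sequences below were chosen to show the range of CpG content among the most open coding-exon peaks (Zfp771, Prr36), the peak that rose in Tet2 KO lines (Kank3) and peaks that differed between cytokines in either direction (Piezo1, Alas1, Cand2, Flt3). Each is 300 of the 301 bases of its peak, from mm10 (GRCm38), written 5′ to 3′ on the strand of its gene, with coding bases in capitals and flanking intron in lower case. Zfp771 exon 3 lies at chr7:127254061-127254360 on the + strand and encodes part of a zinc finger protein, with 50 CpG in the bases shown. Prr36 exon 6, of a proline-rich protein, lies at chr8:4214403-4214702 on the - strand and holds 4 CpG. Kank3 exon 3, of an ankyrin repeat protein that takes part in the control of actin, lies at chr17:33817595-33817894 on the + strand and holds 41 CpG. This peak was also higher in GM-CSF than in SCF control lines. Piezo1 exon 43, of a mechanically gated ion channel, lies at chr8:122484889-122485188 on the - strand, and Alas1 exon 3, of the first enzyme of haem synthesis, at chr9:106243017-106243316 on the - strand. Cand2 exon 10, of a cullin-associated protein, lies at chr6:115792275-115792574 on the + strand, and Flt3 exon 20, of a receptor tyrosine kinase of early progenitors, at chr5:147341133-147341432 on the - strand.
Zfp771 exon 3: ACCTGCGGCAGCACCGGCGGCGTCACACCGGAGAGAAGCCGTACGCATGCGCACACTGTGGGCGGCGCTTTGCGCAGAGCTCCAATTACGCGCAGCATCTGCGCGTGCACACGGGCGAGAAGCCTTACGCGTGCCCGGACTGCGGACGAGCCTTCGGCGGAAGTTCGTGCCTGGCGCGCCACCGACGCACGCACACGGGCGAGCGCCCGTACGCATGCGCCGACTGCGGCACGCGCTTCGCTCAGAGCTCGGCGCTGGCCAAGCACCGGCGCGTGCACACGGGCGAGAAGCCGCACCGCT
Prr36 exon 6: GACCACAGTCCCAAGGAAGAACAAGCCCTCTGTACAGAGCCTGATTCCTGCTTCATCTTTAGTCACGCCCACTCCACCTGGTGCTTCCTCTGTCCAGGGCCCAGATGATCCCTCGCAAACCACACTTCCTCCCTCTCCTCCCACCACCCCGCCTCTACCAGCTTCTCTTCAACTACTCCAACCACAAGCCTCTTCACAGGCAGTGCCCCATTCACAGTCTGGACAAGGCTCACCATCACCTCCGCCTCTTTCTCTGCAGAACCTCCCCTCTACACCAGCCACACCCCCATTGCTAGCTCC
Kank3 exon 3: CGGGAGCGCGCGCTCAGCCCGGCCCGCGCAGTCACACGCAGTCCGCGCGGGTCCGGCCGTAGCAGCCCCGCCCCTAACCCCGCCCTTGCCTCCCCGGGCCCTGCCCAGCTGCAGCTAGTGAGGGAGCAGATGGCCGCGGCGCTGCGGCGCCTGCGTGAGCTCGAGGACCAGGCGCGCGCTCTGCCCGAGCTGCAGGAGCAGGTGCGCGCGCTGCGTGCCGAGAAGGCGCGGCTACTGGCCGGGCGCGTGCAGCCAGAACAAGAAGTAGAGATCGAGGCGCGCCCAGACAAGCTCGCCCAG
Piezo1 exon 43: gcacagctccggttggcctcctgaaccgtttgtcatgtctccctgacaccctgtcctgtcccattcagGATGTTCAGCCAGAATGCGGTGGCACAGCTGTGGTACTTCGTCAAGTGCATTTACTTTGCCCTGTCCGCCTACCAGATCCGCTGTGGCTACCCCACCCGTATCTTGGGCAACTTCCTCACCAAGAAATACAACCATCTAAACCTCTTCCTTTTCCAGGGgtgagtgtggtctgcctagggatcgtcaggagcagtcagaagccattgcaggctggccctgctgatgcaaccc
Alas1 exon 3: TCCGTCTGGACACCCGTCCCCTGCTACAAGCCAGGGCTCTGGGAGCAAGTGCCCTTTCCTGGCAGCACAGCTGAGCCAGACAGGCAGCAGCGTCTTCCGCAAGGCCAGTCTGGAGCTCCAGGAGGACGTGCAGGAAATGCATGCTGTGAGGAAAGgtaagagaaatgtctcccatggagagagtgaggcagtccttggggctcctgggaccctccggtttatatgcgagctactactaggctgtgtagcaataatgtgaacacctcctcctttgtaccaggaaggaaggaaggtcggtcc
Cand2 exon 10: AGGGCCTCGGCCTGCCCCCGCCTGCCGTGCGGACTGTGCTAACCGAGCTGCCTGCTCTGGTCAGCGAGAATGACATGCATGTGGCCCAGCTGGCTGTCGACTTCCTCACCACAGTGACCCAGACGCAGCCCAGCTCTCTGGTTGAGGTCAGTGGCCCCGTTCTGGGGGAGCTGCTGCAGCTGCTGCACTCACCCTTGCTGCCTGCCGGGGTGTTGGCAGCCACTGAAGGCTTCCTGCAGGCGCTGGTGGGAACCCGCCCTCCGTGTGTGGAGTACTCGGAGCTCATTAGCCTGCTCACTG
Flt3 exon 20: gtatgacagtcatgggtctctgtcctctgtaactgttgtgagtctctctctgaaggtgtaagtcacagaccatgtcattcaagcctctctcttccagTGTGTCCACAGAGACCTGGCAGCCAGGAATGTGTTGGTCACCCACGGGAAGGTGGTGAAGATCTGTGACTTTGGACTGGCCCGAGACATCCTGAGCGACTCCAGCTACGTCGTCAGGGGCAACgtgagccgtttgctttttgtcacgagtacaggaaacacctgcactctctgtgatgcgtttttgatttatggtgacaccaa

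Total counts per library ran from 39379 to 1079233, with a median of 389432.5, and coding-exon peaks took 1087 to 19132 counts of a library. Of the 56 libraries, 9 had under 0.5 times the median total. These were 5 SCF libraries of clones 3, 4, 13 and 27 and both lines of GM-CSF clones 19 and 20, whose totals were 114885 and 40876 (clone 19 control and KO) and 88234 and 39379 (clone 20). Counts were scaled by TMM library sizes to CPM, which puts libraries of unequal total on a common scale, and 1 count was worth 1.496 to 8.07 CPM in the GM-CSF controls and up to 11.1 CPM in the GM-CSF KO lines. GM-CSF KO lines 19 and 20 were the only pair of 564 within-group library pairs that did not differ beyond sampling noise (chi-square test, p = 0.544). When the libraries of other pairs were thinned to that depth, 135 of 276 pairs did not differ either, so both lines were kept as labelled. The promoter peaks of 9 GMP genes, Mpo, Elane, Prtn3, Ctsg, Spi1, Cebpa, Myb, Kit and Csf3r, summed to a mean of 282 CPM in SCF controls (121 to 354) and 148 CPM in GM-CSF controls (88.7 to 193). These genes were uneven, with Cebpa the highest at means of 81.2 CPM in SCF and 56.6 CPM in GM-CSF controls. Elane and Prtn3 had means of only 5.23 and 6.54 CPM in SCF controls, and Mpo and Csf3r 6.38 and 8.50 CPM in GM-CSF controls. T cell promoters (Cd3e, Lck, Tcf7) summed to means of 13.1 and 19.9 CPM, endothelial ones (Cdh5, Kdr) to 4.66 and 4.16 CPM and stromal ones (Col1a1, Pdgfrb) to 18.0 and 8.35 CPM. The lists hold unequal numbers of genes, and Tcf7 alone had 7.38 CPM in SCF and 13.8 CPM in GM-CSF controls, above those low GMP genes. None of the coding-exon peaks lay in Tet2 (0 of 10984), so they give no check of the deletion.

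Coding-exon peaks were weakly open as a class. Their median was 32 counts summed over all 56 libraries and 1.48 CPM over SCF controls, and a count was found in a median of 23 of 56 libraries. Only 148 peaks exceeded 10 CPM and 49 exceeded 20 CPM, while 1924 stayed under 1 CPM. The 200 peaks with most counts held 17.0% of the class's 469077 counts. Most peaks reached beyond the coding exon that carried their centre: the median was 177 coding bases of 301, against a median exon length of 201 bases, and 1968 peaks (17.9%) were coding over every base. The median distance to the nearest TSS was 9005.5 bp, the median exon rank was 8, and 20.6% lay in the last coding exon. Peaks in the last coding exon had a mean of 2.27 CPM and the others 1.86 CPM. Across the 2 kb limit, 226 coding-exon peaks at 2000 to 2200 bp had a mean of 2.50 CPM, and 253 peaks centred in CDS at 1800 to 2000 bp, which were left out, a mean of 2.55 CPM.

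In sequence the class resembled promoters, and in level it resembled introns. Mean GC content was 56.3% in coding-exon peaks, 49.3% in intron peaks, 48.5% in intergenic peaks and 55.3% in peaks within 2 kb of a TSS. Mean CpG number was 9.10, 4.06, 3.94 and 11.3 in the same order. The median of counts over the 56 libraries was 32, 28, 27 and 41. The upper tail was thinner than in the other classes, with a 90th percentile of 56 counts against 68 in introns, 76 in intergenic peaks and 704 near TSSs. CpG-dense peaks, with 20 or more CpG, made up 612 coding-exon peaks (5.57%), against 0.323% of intron, 0.568% of intergenic and 22.4% of TSS-near peaks. By mean level coding-exon peaks were the lowest of the 4 classes at every CpG number shown, although their median at 0 to 9 CpG (7057 peaks) was 1.44 CPM, above introns (1.28) and intergenic peaks (1.23), and at 10 to 19 CpG 1.51 CPM, as in introns. With 20 to 29 CpG their mean was 3.31 CPM (437 peaks), against 7.99 CPM in introns, 13.3 CPM in intergenic peaks and 27.4 CPM near TSSs. With 30 or more CpG the means were 8.12, 10.2, 18.3 and 29.1 CPM in that order. These are descriptions over peaks, which are no replicates, and no test was made between classes.

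**Figure D1:**
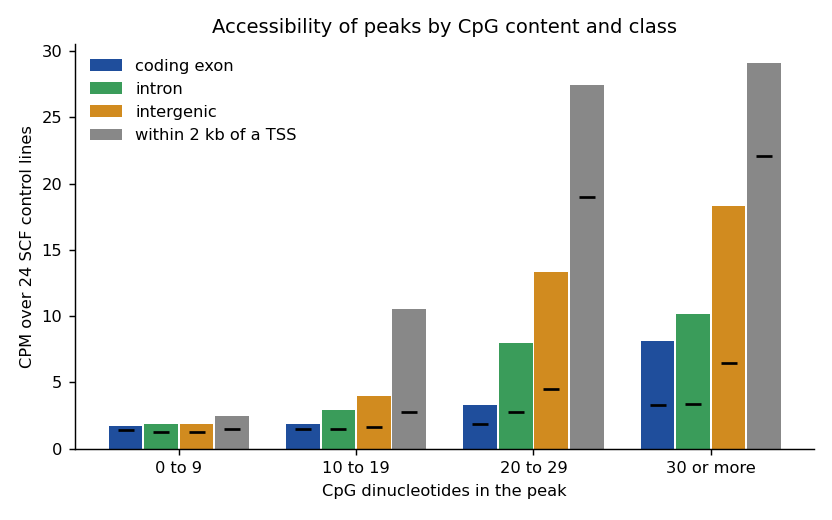
Bars give the mean and black ticks the median CPM over 24 SCF control lines of peaks with 0 to 9, 10 to 19, 20 to 29 and 30 or more CpG, for 4 classes of peak. Coding-exon peaks rose from a mean of 1.73 to 8.12 CPM with CpG number and had the lowest mean of the 4 classes in every group.

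Consensus motifs were searched on both strands, by letters alone. The GATA letters AGATAA were found in 6.54% of coding-exon peaks, against 14.3% of intergenic peaks and 12.5% of all autosomal peaks. The AP-1 letters TGANTCA were found in 6.60%, against 14.0% and 12.2%, the C/EBP letters TTGCNNAA in 8.92%, against 14.9% and 13.2%, and the RUNX letters TGTGGTT in 6.16%, against 11.8% and 10.5%. The E-box CACGTG was found in 6.92% of coding-exon peaks and 5.07% of intergenic peaks (5.78% of all), and the KLF letters CCCACCC in 12.9% and 10.8% (11.9% of all). A match is a string of letters, not a bound site.

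The most open coding-exon peaks were mostly CpG-rich. Cacna1a exon 47 (chr8:84639422-84639722), the last exon of the pore subunit of a neuronal calcium channel, had the highest level, with 35.6 CPM in the lowest, 70.0 in the median and 101 in the highest of 24 SCF controls, and 60 CpG. Zfp771 exon 3 followed with a mean of 64.7 ± 19.5 CPM (SD, n = 24). Fbxl22 exon 2 (chr9:66511682-66511982, an F-box protein) reached 58.0 ± 12.4 CPM, Sptbn4 exon 33 (chr7:27361452-27361752, beta-IV spectrin) 57.4 ± 16.1 CPM and Gdf15 exon 3 (chr8:70629779-70630079, a stress-induced cytokine) 52.9 ± 13.0 CPM. These neighbours in the order overlap within 1 SD. The next were Atn1 exon 6, of the corepressor atrophin-1, at 52.8 ± 15.2 CPM, Kank3 exon 3 at 51.4 ± 10.6 CPM and Msra exon 6, of a methionine sulfoxide reductase, at 49.7 ± 10.6 CPM. Prr36 exon 6 stood at 48.1 ± 12.7 CPM with 4 CpG, the lowest CpG number among these 12. Crybg2 exon 14 had 42.8 ± 12.2 CPM, Mamstr exon 7, of a coactivator of MEF2, 41.5 ± 13.5 CPM, and Notch4 exon 30, of a Notch receptor, 39.0 ± 12.0 CPM. Together the 12 peaks held 3.29% of the class's counts.

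Genes with many coding exons held many weak peaks. Hmcn2 (a hemicentin of the extracellular matrix) and Kmt2d (a histone H3K4 methyltransferase) held 14 coding-exon peaks each, Sptbn4 and Ubr4 (a ubiquitin ligase) 13 each, Cdh23 12 and Cul9 11. Summed over its peaks, Kmt2d had 21.4 ± 10.6 CPM in SCF controls, 22.7 ± 11.5 CPM in SCF KO lines (higher in 15 of 24 pairs) and 19.5, 56.5, 35.3 and 20.9 CPM in GM-CSF controls 19, 20, 21 and 22. Its difference between cytokines did not pass the test (log2 0.54 ± 0.32 SE, edgeR adjusted p = 0.278). Sptbn4 differed in shape, since exon 33 alone gave 57.4 of its 89.3 CPM. Its sum was 89.3 ± 17.4 CPM in SCF controls and 91.3 ± 21.3 CPM in SCF KO lines, and its GM-CSF controls ran from 26.0 to 108 CPM.

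The pooled share addressed whether coding exons as a class opened or closed with genotype or cytokine. Of counts in distal peaks (those over 2 kb from any TSS), coding-exon peaks took 4.49% ± 0.30 in SCF controls (SD, n = 24), with a range of 3.98 to 5.15%, and 4.54% ± 0.37 in SCF KO lines (n = 24), with a range of 3.84 to 5.46%. The KO line was higher in 14 of 24 pairs, by a mean of 0.0452 percentage points (SD of the pair differences 0.349, two-sided sign-flip permutation p = 0.526). Of all autosomal counts the share was 2.18% ± 0.30 in SCF controls and 2.14% ± 0.40 in SCF KO lines, with the KO line higher in 10 of 24 pairs (p = 0.639 by the same permutation test). No effect of Tet2 genotype on the pooled share was detected in SCF clones, on either denominator.

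In GM-CSF the distal share was 5.37, 5.33, 4.61 and 4.55% in the control lines of clones 19, 20, 21 and 22, and 6.10, 5.20, 4.70 and 4.59% in their KO lines. Counting error alone gives 5.19 to 5.56% for control line 19 and 4.49 to 4.62% for control line 22 (Wilson 95% intervals). Clones 19 and 20, the shallow ones, stood above clones 21 and 22 in both genotypes. The KO line was higher in 3 of 4 pairs, by a mean of 0.183 percentage points (exact permutation test p = 0.5), and 4 pairs cannot go below p = 0.13. The KO effect in GM-CSF minus that in SCF was 0.137 percentage points (exact permutation p = 0.481).

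Between cytokines the distal share was higher in GM-CSF by 0.471 percentage points in control lines (exact permutation p = 0.0123) and by 0.608 in KO lines (exact permutation p = 0.0163). Adjusted over the 10 pooled tests, both gave p = 0.0588 and did not pass. On autosomal counts the differences were 0.373 (exact permutation p = 0.0308, adjusted 0.0769) and 0.569 percentage points (exact permutation p = 0.0176, adjusted 0.0588). Depth and clone identity moved with this contrast. Without the 6 clones that had a shallow library, among them GM-CSF clones 19 and 20, the differences on the distal denominator were 0.130 (exact permutation p = 0.502) in control lines and 0.137 (exact permutation p = 0.554) in KO lines. In SCF the 5 shallow libraries ranged from 3.95 to 5.46%, against 3.84 to 5.15% in the other SCF libraries. Leaving out clone 21 or clone 22 brought all 4 adjusted values under 0.05 (0.0342 to 0.0487), and leaving out clone 19 or clone 20 raised them to between 0.222 and 0.515.

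Within SCF controls the distal share of coding-exon peaks was lower in libraries with more counts near TSSs (Pearson r = -0.693, permutation p = 0.00024, Spearman rho = -0.779, permutation p = 2e-05, n = 24). Adjusted over the 2 relations computed, p was 0.00048 for r and 4e-05 for rho. Without the 2 libraries farthest from the median r was -0.618. With total counts r was -0.558 (permutation p = 0.00407) and rho -0.470 (permutation p = 0.0213), with r -0.539 without 2 libraries. Within the lower-numbered clones (1 to 18, n = 17) the relation with the TSS-near share had r = -0.618 (permutation p = 0.00825) and within clones 23 to 29 (n = 7) r = -0.881 (exact permutation p = 0.0117). With total counts the values were -0.588 (permutation p = 0.0128) and -0.526 (exact permutation p = 0.229), so that relation was not found within the smaller set.

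**Figure D2:**
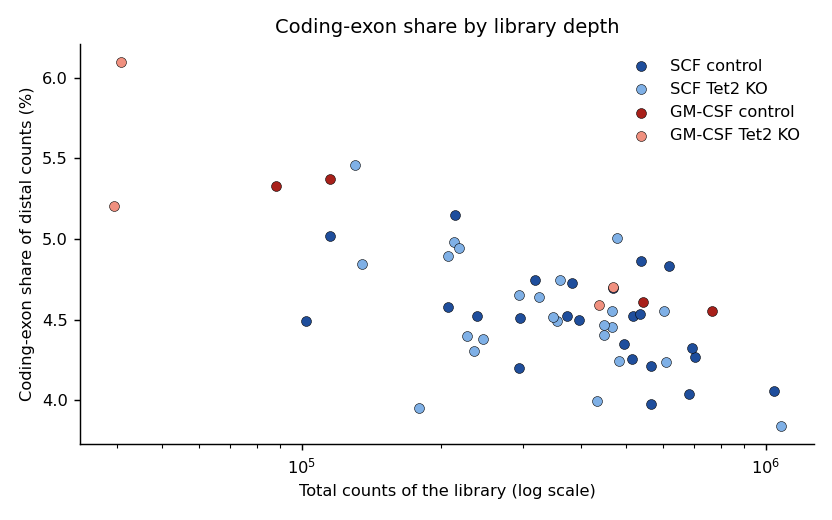
Each point is 1 of 56 libraries, with its total counts on a log axis and the percent of its distal counts that fell in coding-exon peaks. The 4 GM-CSF libraries of clones 19 and 20, with totals from 39379 to 114885, lie at 5.20 to 6.10%, and the 4 of clones 21 and 22 lie at 4.55 to 4.70% among the SCF libraries.

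Single peaks were next compared between the Tet2 KO and the control line of each SCF clone, in a fit blocked by clone. Only 246 coding-exon peaks had enough counts to be tested, and 1 rose and 0 fell at an adjusted p of 0.01 or less. Of all 20981 peaks tested, 1.2% rose and 0.0572% fell, 1.26% in all. Among TSS-near peaks 234 of 12513 rose and 5 fell, and among tested intron peaks 5 of 4201 rose and 5 fell. At an unadjusted p under 0.05, 16 of the 246 coding-exon peaks (6.5%) differed, 5 of them upward, against 2833 of all tested peaks (13.5%). Data were simulated at the levels of all tested peaks, with a fixed assumed spread and no clone effect. There 37 of 67 peaks changed by 2-fold and 3 of 67 changed by 1.5-fold were recovered. Smaller changes of most peaks were not detectable in that setting, and coding-exon peaks were not simulated alone.

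The peak that rose was Kank3 exon 3 (chr17:33817595-33817895, 6731 bp from the nearest TSS). In SCF controls it had 29.2 CPM in the lowest, 52.2 in the median and 70.5 in the highest library, and in SCF KO lines 28.1, 65.0 and 97.4 CPM. The KO line was the higher in 18 of 24 pairs, although the groups overlapped over most of their range. The log2 fold change was 0.40 ± 0.09 (SE), with an edgeR adjusted p of 0.00265. The call was lost with the TSS-near share as a covariate (log2 0.34, adjusted p = 0.0429), with every peak of 50 or more counts tested (log2 0.39, adjusted p = 0.0319) and in clones 23 to 29 alone (log2 0.20, adjusted p = 0.92), and DESeq2 gave it no adjusted p (log2 0.34, unadjusted p = 0.000686). Across the alternatives run the adjusted p ranged from 0.000379 to 0.92 and the direction was upward in all. In GM-CSF the controls of clones 19, 20, 21 and 22 had 104, 96.8, 66.5 and 112 CPM and the KO lines 33.1, 33.2, 115 and 119 CPM. The 2 low values are 3 counts each, and the KO effect there was 0.07 ± 0.24 (log2 ± SE, unadjusted edgeR p = 0.776). The same peak was also called between cytokines, higher in GM-CSF than in SCF control lines (log2 0.82 ± 0.19 SE, edgeR adjusted p = 0.000385). In that comparison 3 of the 4 GM-CSF controls lay above all 24 SCF controls.

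No coding-exon peak fell past the threshold. The 3 with the smallest p in that direction were Adam8 exon 19, Chadl exon 3 and Nxnl1 exon 2. Adam8 exon 19 (chr7:139984583-139984883), of a metalloprotease of myeloid cells, had 0, 8.62 and 21.8 CPM in the lowest, median and highest SCF control and 0, 4.16 and 13.5 CPM in the KO lines. The KO line was the higher in 6 of 24 pairs (log2 -1.03 ± 0.28 SE, edgeR adjusted p = 0.0154). Chadl exon 3 (chr15:81693963-81694263) gave -0.33 (adjusted p = 0.168) and Nxnl1 exon 2 (chr8:71562771-71563071) -0.46 (adjusted p = 0.186). Among the 12 most open peaks, Cacna1a exon 47 came nearest to the threshold after Kank3, with 86.3 ± 24.1 CPM in KO lines against 70.8 ± 20.6 CPM and the KO line higher in 17 of 24 pairs (log2 0.29 ± 0.09 SE, adjusted p = 0.0319).

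**Figure D3:**
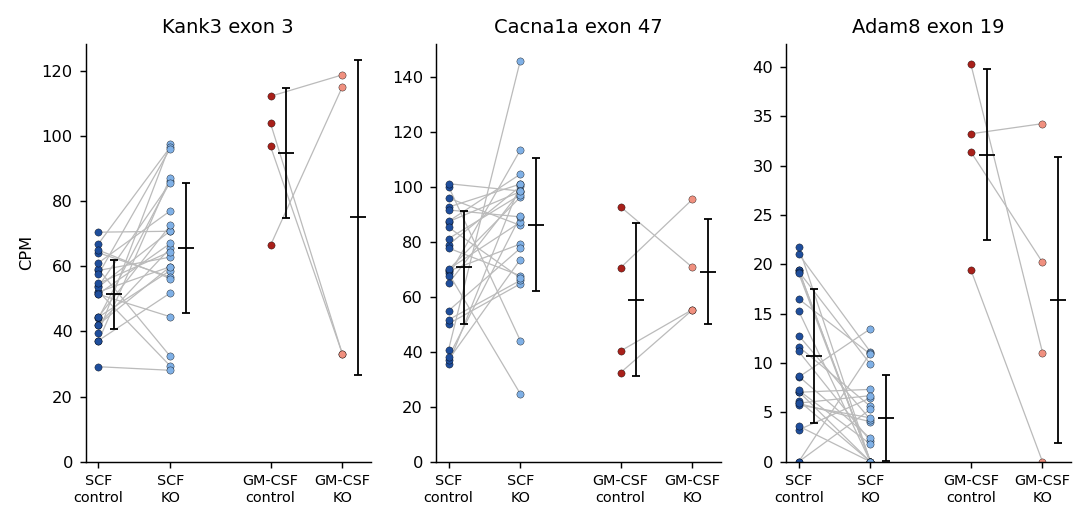
CPM of 3 coding-exon peaks in each line, with a grey line joining the control and Tet2 KO line of a clone and black bars giving mean and SD (24 SCF and 4 GM-CSF pairs). Kank3 exon 3 was higher in the KO line of 18 of 24 SCF clones, and the GM-CSF pairs moved in both directions.

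The cytokines were compared peak by peak, between the 4 control lines kept in GM-CSF and the 24 kept in SCF. Of 1443 coding-exon peaks tested, 45 were higher and 27 were lower in GM-CSF (4.99% in all). Of all 55664 peaks tested, 3.71% were higher and 3.79% lower, 7.5% in all. The groups did not overlap for 4 of the 45 (8.89%) and 3 of the 27 peaks (11.1%), against 15.6% of all higher and 12.5% of all lower peaks, which are 0.58% and 0.474% of all tested. In data simulated in the same way over all 55664 tested peaks, 14 of 66 peaks changed by 4-fold and 1 of 67 changed by 2-fold were recovered. The called share was 8.96% in introns, 9.18% in intergenic peaks, 7.21% in other exons and 5.41% near TSSs, so coding exons had the lowest share of the 5 classes, with no test of that difference. The split between directions depended on scaling: with TMM factors from distal peaks, which moved the median of all peaks from -0.07 to -0.23 (log2), 33 were higher and 27 lower, with upper-quartile scaling 53 and 27, and with DESeq2 34 and 12. It also depended on the filter. The filter admits a peak by its counts in 4 libraries, so a peak open only in GM-CSF could enter. Of the 45 higher peaks 24 had 50 or more counts in total over the control lines, all of them called in that fit (30 higher, 27 lower of 608 tested). That total includes the GM-CSF counts, so this fit is no check on selection by the filter. With a minimum count of 10, 9 of 98 tested peaks were higher and 15 lower. Among the GM-CSF clones, leaving out 21 or 22, the deeper ones, changed the counts most: 27 peaks were higher and 10 lower without clone 21, 12 and 11 without clone 22, 42 and 18 without clone 19. All called peaks kept their direction in each of these fits in which they were tested. In Tet2 KO lines, which are other libraries of the same clones, 20 of the 45 higher peaks were tested, of which all 20 were higher and 13 called, and all 27 lower peaks were tested and lower, with 13 called. A peak could enter this fit too by its counts in the 4 GM-CSF lines, so it is no check on selection by the filter. In all, 18 of 542 tested coding-exon peaks were called higher and 16 lower in KO lines. Of all 32380 peaks tested there, 1055 were called higher and 1297 lower.

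**Figure D4:**
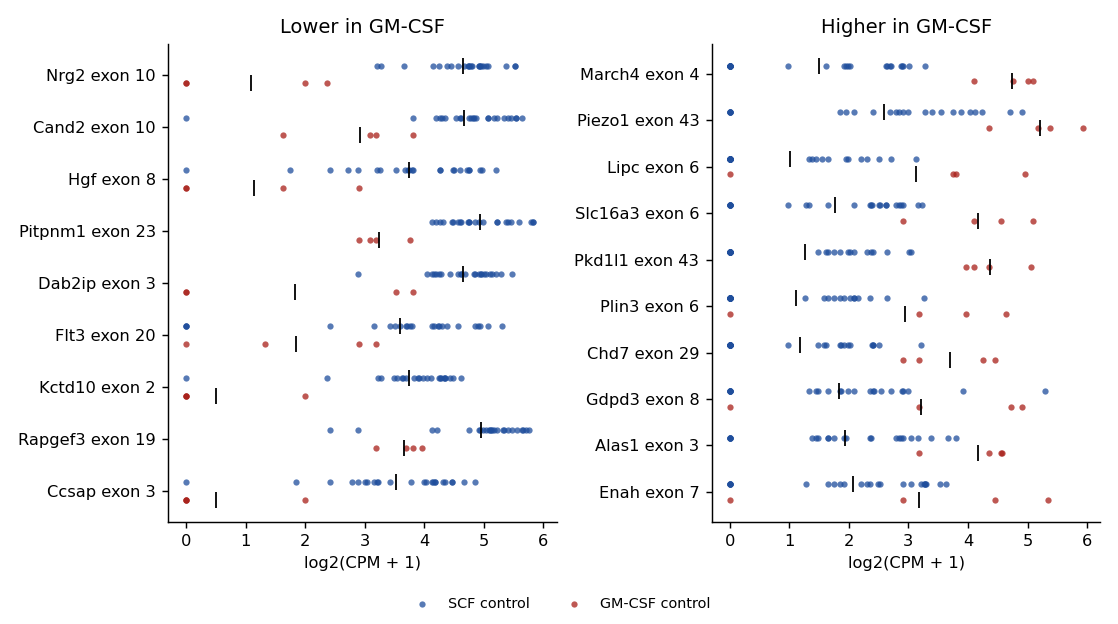
log2(CPM + 1) of 10 coding-exon peaks higher and 9 lower in GM-CSF, chosen by the smallest p, with 1 point per control library (24 SCF, 4 GM-CSF) and a vertical tick at the mean of each group. Peaks at 0 in a library had no count there, and March4 and Pkd1l1 on the right and Nrg2 and Pitpnm1 on the left show no overlap between groups.

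The 10 higher peaks with the smallest p lay in genes of varied function. March4 exon 4 (chr1:72428595-72428895), of a membrane-bound ubiquitin ligase, had 0, 2.84 and 8.71 CPM in the lowest, median and highest SCF control and 26.0, 16.1, 31.2 and 32.9 CPM in GM-CSF controls 19 to 22. All 4 GM-CSF lines lay above all 24 SCF lines (log2 3.25 ± 0.40 SE, edgeR adjusted p = 5.67e-13). The Piezo1 exon 43 peak shown above had 0, 6.34 and 29.0 CPM in SCF controls and 19.5, 40.3, 35.3 and 59.8 CPM in GM-CSF controls, with 3 of the 4 above every SCF line (log2 2.22 ± 0.31 SE, adjusted p = 1.34e-10). Slc16a3 exon 6 (chr11:120957796-120958096), of a lactate exporter, had a mean of 3.45 CPM in SCF controls and 6.49, 16.1, 33.2 and 22.4 CPM in GM-CSF controls (log2 2.67 ± 0.42 SE, adjusted p = 3.13e-08). Pkd1l1 exon 43 (chr11:8826652-8826952), of a polycystin-related channel protein, went from 0, 2.10 and 7.22 CPM to 32.5, 16.1, 14.5 and 19.5 CPM, with no overlap (log2 2.95 ± 0.48 SE, adjusted p = 7.93e-08).

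Alas1 exon 3 had 0, 2.83 and 13.0 CPM in SCF controls and 19.5, 8.07, 22.9 and 22.4 CPM in GM-CSF controls, with 3 of 4 above all SCF lines (log2 2.33 ± 0.43 SE, edgeR adjusted p = 3.57e-06). Lipc exon 6 (chr9:70812556-70812856, hepatic lipase) gave log2 3.16 ± 0.49 (SE), Plin3 exon 6 (chr17:56281390-56281690, a lipid droplet coat protein) 2.87 ± 0.51 and Gdpd3 exon 8 (chr7:126770840-126771140, of a phosphodiesterase family) 2.28 ± 0.41. Each of these 3 had no count in GM-CSF control 19 or 20 and lost its call without clone 22 (adjusted p = 0.0814, 0.102 and 0.0167), and Gdpd3 also with DESeq2 (adjusted p = 0.116). Chd7 exon 29 (chr4:8854031-8854331), of a chromatin remodeller, had 6.49, 8.07, 20.8 and 17.9 CPM in GM-CSF controls against a mean of 1.94 CPM in SCF controls (log2 2.81 ± 0.50 SE, adjusted p = 1.58e-06). Lipc, Plin3 and Chd7 had only 47, 44 and 46 counts over the control lines and were not tested when 50 were required. Their entry rested on the few libraries in which they were high, and their values are a description. By SCF counts alone March4 (30), Pkd1l1 (24), Slc16a3 (36), Alas1 (41) and Gdpd3 (44) would also fall short of 50. Their adjusted p-values share this limit, since the filter saw the group in which they were high. Enah exon 7 (chr1:181922008-181922308), of an actin regulator, gave log2 2.14 ± 0.40 (SE) and lost its call without clone 21 (adjusted p = 0.0868).

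The Tet2 KO lines, which did not enter this test, are given for 3 of these peaks as examples. They do not stand for the rest, since of all 45 higher peaks 20 were tested in KO lines and 13 called. March4 exon 4 had 11.0, 0, 51.4 and 53.1 CPM in GM-CSF KO lines 19 to 22 against a mean of 1.59 CPM in SCF KO lines, and Piezo1 exon 43 had 0, 11.1, 51.4 and 53.1 CPM against 5.42 CPM. Alas1 exon 3 had 22.1, 22.1, 29.4 and 15.2 CPM against 2.00 CPM. The zeros fall in clones 19 and 20, where 1 count is worth about 11 CPM.

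Among peaks lower in GM-CSF, Nrg2 exon 10, of a neuregulin, had 8.25, 26.3 and 45.2 CPM in the lowest, median and highest SCF control and 0, 0, 4.16 and 2.99 CPM in GM-CSF controls, so that all 4 lay below all 24 (log2 -3.18 ± 0.52 SE, edgeR adjusted p = 1.23e-07). Its GM-CSF controls held 4 counts in all, and the zeros are clones 19 and 20, where 1 count is worth 6.49 and 8.07 CPM. Pitpnm1 exon 23 (chr19:4113379-4113679), of a phosphatidylinositol transfer protein, had 16.5, 26.8 and 55.7 CPM in SCF controls and 6.49, 8.07, 12.5 and 7.48 CPM in GM-CSF controls (log2 -1.86 ± 0.37 SE, adjusted p = 3.02e-05). Cand2 exon 10 had a mean of 28.8 CPM in SCF controls and 13.0, 8.07, 2.08 and 7.48 CPM in GM-CSF controls (log2 -2.19 ± 0.42 SE, adjusted p = 1.18e-05). Dab2ip exon 3 (chr2:35661411-35661711), of a Ras GTPase-activating protein, gave log2 -2.06 ± 0.43 (SE) and Rapgef3 exon 19 (chr15:97750693-97750993), of a cAMP-activated exchange factor, -1.55 ± 0.34. The Dab2ip call was lost without clone 21 (adjusted p = 0.0257) and that of Rapgef3 without clone 22 (adjusted p = 0.0111).

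The calls of 4 lower peaks rested on 3 counts or fewer in the GM-CSF controls. Flt3 exon 20 had 0, 14.7 and 38.4 CPM in SCF controls and 6.49, 8.07, 0 and 1.496 CPM in GM-CSF controls, which is 3 counts against 195, and its pooled level was 8.6-fold lower (95% counting interval 2.9 to 42.1). Pooling weights libraries by depth, and with equal weights the mean CPM was 15.8 in SCF and 4.01 in GM-CSF controls, a smaller difference. Hgf exon 8 (chr5:16578306-16578606, hepatocyte growth factor) had 2 counts against 193 and was 12.8-fold lower (3.49 to 106). Kctd10 exon 2 (chr5:114374750-114375050, a cullin adaptor) and Ccsap exon 3 (chr8:123845087-123845387, a spindle protein) had 2 counts against 163 each and were 10.8-fold lower (2.94 to 89.8). Each of these calls was lost without clone 21 or clone 22, with edgeR adjusted p between 0.0114 and 0.017. In KO lines in place of control lines those of Hgf and Ccsap were lost as well (edgeR adjusted p = 0.0323 and 0.0105). Of all 27 lower peaks, 14 had 3 or fewer counts in the GM-CSF controls.

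The called peaks were also compared with what lay near them. Of the 45 higher peaks, 34 had another tested peak, not in a coding exon, within 10 kb, which was higher in 28 cases and also called in 3. Of the 27 lower peaks, 20 had one, which was lower in 12 cases and also called in 2. Of all 55664 tested peaks 3.71% were called higher and 3.79% lower. The neighbours had passed the same filter, and their directions were not tested against neighbours of uncalled peaks. Next to Alas1 exon 3 an intron peak at 1743 bp was higher as well (log2 3.37, edgeR adjusted p = 6.47e-09). Mean CpG was 10.1 in higher, 13.3 in lower and 11.8 in all 1443 tested coding-exon peaks, and 3 of 45 higher, 6 of 27 lower and 224 of 1443 tested peaks were CpG-dense. The C/EBP letters TTGCNNAA were found in 12 of 45 higher peaks (26.7%), 11.1% of lower and 10.3% of tested peaks, and occur in the Piezo1 and Alas1 sequences above. The GATA letters AGATAA were found in 2.22% of higher, 22.2% of lower and 6.79% of tested peaks, and the PU.1 letters GAGGAAGT in 20.0, 18.5 and 8.46%, where 6.77% of all autosomal peaks hold them. These shares were picked after seeing them among the motifs searched and were not tested.

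Counts were also summed over the coding-exon peaks of a gene and tested beside the sums of its TSS-near, intron and other exon peaks. In SCF clones 49 coding-exon sums were tested for Tet2 KO, and Kank3 alone was called, at an adjusted p under 0.05 (3 peaks, 54.6 ± 12.1 against 69.8 ± 19.2 CPM, higher in 20 of 24 pairs, log2 0.38, edgeR adjusted p = 0.00553). Of all 10652 sums tested, 2.68% rose and 0.441% fell, 3.12% in all. Below the threshold on the lower side, Chadl, Msra and Dab2ip had the smallest p, with log2 -0.35, -0.26 and -0.30 (adjusted p = 0.152, 0.184 and 0.252).

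Between cytokines 12 coding-exon sums were higher and 17 lower in GM-CSF of 184 tested, where 6.92% and 9.85% of all 16673 sums were, 16.8% in all. They were set beside the sums of the same genes' TSS-near and intron peaks. Of the 12 higher genes, 5 had a tested TSS-near sum, which was higher in 2, called higher in 0 and called lower in 1. Of the 17 lower genes, 12 had one, which was lower in 9, called lower in 3 and called higher in 1. Intron sums had the same direction in 4 of 5 higher and 6 of 7 lower genes, with 1 and 0 of them called. Piezo1 (7 peaks, 19.1 ± 12.7 CPM in SCF controls and 38.9, 40.3, 54.0 and 74.8 CPM in GM-CSF controls) gave log2 1.60 ± 0.29 (SE, edgeR adjusted p = 1.3e-05) against 0.09 ± 0.24 near its TSS. Adam8 gave 1.61 ± 0.36 (adjusted p = 0.00043) against 0.08 ± 0.41. Mcm3ap, whose product associates with the MCM replication complex, gave 1.53 ± 0.37 (adjusted p = 0.00131) against -0.14 ± 0.34. Kank3, the sum called for Tet2 KO, was also called here, with 0.79 ± 0.17 (adjusted p = 0.000307), and had no tested TSS-near sum.

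Among the lower genes, Nrg2 gave -2.04 ± 0.37 (SE) over coding exons (edgeR adjusted p = 1.51e-05) against -0.04 ± 0.28 near its TSS and 0.31 ± 0.15 in introns. Dab2ip gave -1.76 ± 0.34 against -0.02 ± 0.28 near its TSS. Flt3 was lower in both classes, with -2.43 ± 0.56 over coding exons (adjusted p = 0.00074) and -0.94 ± 0.26 near its TSS (adjusted p = 0.00512), and so was Klf4, a zinc finger factor of monocytes, with -2.23 ± 0.54 (adjusted p = 0.00158) and -1.11 ± 0.25 (adjusted p = 0.00066). Gdf15, singled out after its values were seen, went in opposite directions, with -0.64 ± 0.23 over exon 3 (adjusted p = 0.0427) and 1.29 ± 0.28 near its TSS (adjusted p = 0.000335). Celsr3, a cadherin, did the reverse, with 0.86 ± 0.23 (adjusted p = 0.00461) and -0.87 ± 0.27 (adjusted p = 0.0156). Alas1 rose in both coding exons (1.96 ± 0.38, adjusted p = 5.86e-05) and introns (2.20 ± 0.47, adjusted p = 0.000247). No difference between classes of 1 gene was itself tested.

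**Figure D5:**
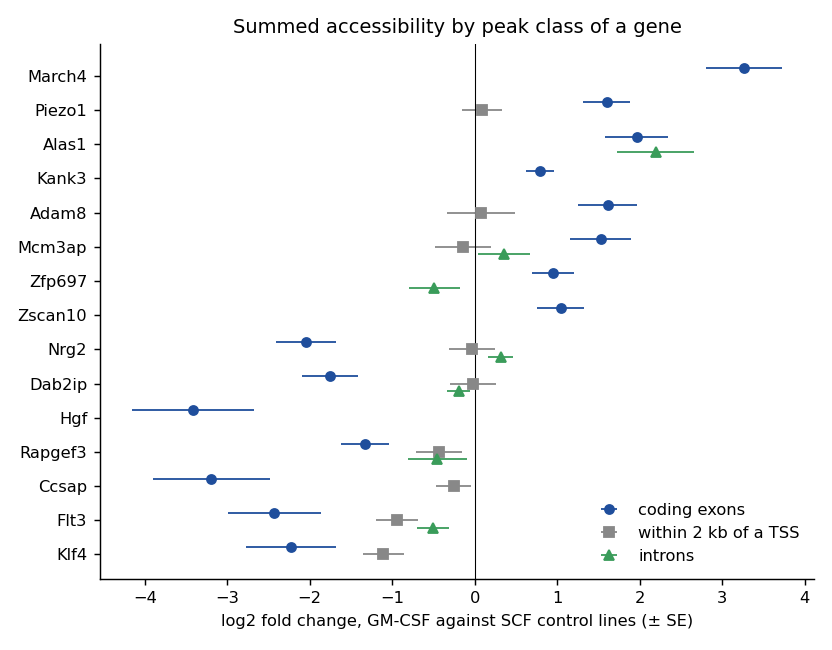
log2 fold change between GM-CSF and SCF control lines (points, with SE) of counts summed over the coding-exon, TSS-near and intron peaks of 15 genes, wherever a sum was tested. The coding-exon sums of Piezo1, Adam8 and Mcm3ap lie right of 0 and those of Nrg2 and Dab2ip left of it, while their TSS-near sums lie between -0.14 and 0.09.

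Genes of 8 lists of blood cell and chromatin genes were read off the same fits. No list gene had a coding-exon sum with enough counts to be tested for Tet2 KO. Between cytokines 1 of 2 tested sums of stem and progenitor genes was lower (Flt3), and 1 of 3 of monocyte and macrophage genes (Klf4, 0, 16.1, 4.16 and 1.496 CPM in GM-CSF controls against 17.0 ± 6.75 CPM in SCF controls). Over all tested sums 6.92% were higher and 9.85% lower. Of chromatin and DNA methylation genes 3 sums were tested and none was called: Kmt2d, Hdac4 (11.4 ± 5.72 CPM in SCF controls and 32.5, 16.1, 20.8 and 20.9 CPM in GM-CSF controls) and Hdac7. Neither was the 1 erythroid and megakaryocyte sum, of Vwf. Granulocyte, lymphoid, cytokine signalling and phagocyte effector genes had no tested sum. The chromatin list was the best covered, with 108 coding-exon peaks in 27 of its 29 genes. Of these peaks 12 were tested, with a median log2 of 0.56 beside 0.03 over tested coding-exon peaks and -0.07 over all tested peaks, and 2 were called higher, in Hdac4 and in Chd7, whose low total is given above. Over all tested coding-exon peaks 4.99% were called in either direction, and over all tested peaks 7.5%. The median describes the 12 peaks past the filter, not the 108 of the list. Among single peaks of the other lists, 2 of 5 of stem and progenitor genes were lower, in Flt3 and Angpt1 (1 count in the GM-CSF controls), with a median log2 of -1.08. Of 7 tested peaks of monocyte and macrophage genes (median log2 0.32), F7 was higher (log2 1.79, edgeR adjusted p = 0.000512) and Klf4 lower. The other lists had no called peak of 5 granulocyte, 1 lymphoid, 2 erythroid, 2 cytokine signalling and 3 phagocyte effector peaks tested.

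The Tet2 effect in GM-CSF clones was estimated with all 56 libraries in 1 fit. No coding-exon peak of 2146 tested passed (edgeR, 0 higher and 0 lower), nor did any of all 66965 peaks (0% called), while 58 coding-exon peaks and 2404 of all peaks had an unadjusted p under 0.05. The same held for the difference between the KO effects in GM-CSF and SCF, with 0 calls, 53 coding-exon peaks and 2105 of all peaks at an unadjusted p under 0.05. With 4 pairs of which 2 are shallow, an absence of calls does not show that the effects were alike.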

How the data were processed

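Bulk ATAC-seq was measured in 56 libraries. The authors deposited raw counts per 301-bp peak and library, with no normalization. The submitters' processing notes name mm10, Bowtie2, SAMtools and Picard, and the authors built the peak set from summits of their single-cell data plus ImmGen peaks. Not given in the sources used here were the tools' versions and whether a count is a fragment or an insertion. Intervals cover counting error only.

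Each peak was placed in a class by GENCODE vM21 (basic set, on GRCm38, which is mm10). Counts were fitted over all peaks, or all gene sums, with edgeR 4.0.16 in R 4.3.3 (quasi-likelihood test, TMM, filterByExpr with a minimum count of 3 for peaks and 10 for gene sums). A peak was called at a Benjamini-Hochberg adjusted p of 0.01 or less, the study's limit, and a gene sum under 0.05. The clone was a block for KO contrasts, since both lines of a clone come from 1 sorted cell. For KO contrasts p-values measure how the KO-minus-control difference varied over clone pairs, and for cytokine contrasts the spread between clones. The chi-square test of library pairs measures counting noise alone. Pooled shares were tested two-sided, by exact enumeration or with 100000 permutation draws, adjusted over 10 tests. The tests were checked on simulated data. Alternatives covered DESeq2 1.42.0, other scalings, filters, peak definitions and left-out clones. Shares and permutations were computed in Python 3.11.15 with scipy 1.17.1 and numpy 2.4.6.

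Named peaks are the 12 with the highest level, the 6 genes with most peaks, and up to 10 peaks and 8 gene sums per direction with the smallest p (3 where none passed). Of these, 1 lower peak with its gene sum is not reported here, nor are 2 of the marker lists. The members and gene lists were chosen with earlier results of these data known.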

Additional observations from a re-analysis of the deposited data

Results flagged for a closer look

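Of 74 groups of 4 GM-CSF lines tested for an outlying library, 5 were flagged by Dixon's gap ratio, and chance flags about 1 in 20. All 5 are peaks at 0 CPM in 3 lines and above 0 in 1. Kctd10 exon 2 and Ccsap exon 3 had 2.992 CPM in GM-CSF control 22, which is 2 counts each. Flt3 exon 20 and Kctd10 exon 2 had 2.527 CPM in GM-CSF KO line 22, which is 1 count each. Nrg2 exon 10 had 11.05 CPM in GM-CSF KO line 19, which is 1 count in a library of 40876.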

How the results depend on the processing

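Of 218 values of the main comparisons under alternatives, 181 kept their direction and side of the threshold, or stayed within 1.5 times for counts. Of the other main values 11 changed direction, 8 came to pass the threshold and 18 were counts that moved further. Of 326 values of named peaks and gene sums 306 were kept, 20 fell short of the threshold and 0 changed direction. The cause of each change was not tested. Among pooled shares (percentage points), the Tet2 effect in SCF was 0.0364 on autosomal counts in clones 1 to 18 alone, -0.143 on distal counts in clones 23 to 29 alone and -0.00963 as a GC-standardised ratio of observed to expected distal counts. With peaks coding over every base, the distal Tet2 effect in GM-CSF was -0.0164 and its difference from SCF -0.0368. Leaving out each GM-CSF clone in turn, the Tet2 effect in GM-CSF ranged from -0.00257 to 0.256 on autosomal counts and its difference from SCF from -0.0423 to 0.239 on distal counts. The cytokine difference ranged from 0.246 to 0.488 (autosomal) and 0.334 to 0.607 (distal) in control lines and from 0.331 to 0.703 and 0.292 to 0.794 in KO lines, and passed 0.05 after adjustment only without clone 21 or 22.

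Some alternatives were chosen after seeing the data. With the 612 CpG-dense peaks alone, the cytokine difference was -0.00894 (autosomal) and -0.0556 (distal) in control lines and -0.0567 (distal) in KO lines, and the distal difference between the Tet2 effects was -0.00111. With the comprehensive annotation, which left 7575 peaks, no pooled value changed direction or passed.

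Coding-exon peaks that rose in Tet2 KO lines numbered 0 with DESeq2, with peaks of 50 or more counts in total, with the TSS-near share as a covariate and in clones 23 to 29 alone, and gene sums numbered 0 with DESeq2, which gave no adjusted p to 8 named values, Kank3 among them. Peaks higher in GM-CSF numbered 9 with a minimum count of 10, 18 in KO lines and 12 to 45 when a GM-CSF clone was left out. Peaks lower numbered 15, 16 and 10 to 26 in the same order, and 12 with DESeq2. Higher and lower gene sums numbered 69 and 39 with a minimum count of 3 and 7 and 8 in KO lines. Without the clone as a replicate block, the pairing by clone was ignored: 1 coding-exon peak and 1 coding-exon sum (Kank3, log2 0.39, edgeR adjusted p = 0.00522 for the peak) were still called. No other coding-exon call changed. Over all tested peaks the calls fell from 252 higher and 12 lower to 140 and 6. Over all gene sums they fell from 285 and 47 to 194 and 22. Depth limits all single-peak results, since 246 of 10984 coding-exon peaks could be tested for Tet2 KO and 1443 between cytokines.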
